A study of Mus musculus with 16 samples.

Results

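The ion-pumping and lipid-flipping ATPases are membrane proteins that spend ATP to move ions or phospholipids from 1 side of a membrane to the other. Members were the genes whose symbol starts with Atp1a, Atp1b, Atp2a, Atp2b, Atp2c, Atp6v, Atp6ap, Atp7, Atp8, Atp9, Atp10, Atp11 or Atp13, without Atp6v1g3, and a probe was assigned to a member through its transcript accession. RefSeq lists 66 such genes. Of these, 63 had at least 1 of the 56605 probes of the array (110 probes), and 54 were measured, which means that at least 1 of their probes stood well above background throughout 1 group or more (94 probes in all). The 9 genes with a probe but no measurable signal were Atp1a4, Atp1b4, Atp8b1, Atp8b3, Atp2c2, Atp6v0d2, Atp6v1b1, Atp6v1c2 and Atp6v1fnb, and the 3 without a probe were Atp10d and the pseudogenes Atp6v0c-ps1 and Atp6v0c-ps2. Of the 54 measured genes, 51 were well above background on every array, and Atp6v0a4, Atp8b4 and Atp8b5 passed through some groups only.

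The arrays held cerebellar RNA of 16 mice, 1 mouse an array and 4 a group. Mice of the strain B6;129S4-Atmtm1Bal/J were either homozygous for the disrupted Atm allele in every cell (Atm-/-) or wild-type littermates (WT), all labelled male and 3.5 months old. From 6 weeks of age they drank for 2 months either plain water (veh) or water that held nicotinamide riboside (NR), a precursor of NAD+, at 3.5 mg/ml or 12 mM. The groups are written Atm-/- NR, Atm-/- veh, WT NR and WT veh. The comparisons ask how loss of Atm changes the cerebellum and how NR changes it in each genotype.

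The vacuolar ATPase (V-ATPase) is a rotary proton pump that acidifies lysosomes, endosomes and synaptic vesicles. Its V1 sector in the cytosol splits ATP, its V0 sector in the membrane carries the protons, and the pump is switched on and off by joining and parting the sectors. The other members are P-type ATPases, which pass a phosphate onto themselves in each cycle: the sodium pump that restores the ion gradients of firing neurons, the calcium pumps of the endoplasmic reticulum (SERCA), plasma membrane (PMCA) and Golgi (SPCA), the copper pumps, the P4 flippases that keep phosphatidylserine and other lipids on the cytosolic leaflet, and the P5 pumps, which include polyamine transporters.

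Levels are given as the log2 of the background-subtracted spot signal after quantile normalization, for the brightest measured probe of a gene, and differences are on the same log2 scale. A difference was called where limma, fitted over all 37253 measured probes, gave a Benjamini-Hochberg adjusted p under 0.05. Slide 1 carried only WT mice and slide 2 only Atm-/- mice, which means that the genotype cannot be told apart from the slide. On either slide the veh mice filled row 1 and the NR mice row 2, and NR cannot be told apart from the row. Between 34945 and 37817 probes were well above background on the Atm-/- NR arrays, against 39134 to 41905 on the Atm-/- veh arrays, and the part of this in the NR comparison was not tested. On 4 arrays (Atm-/- NR 4, Atm-/- veh 3, WT NR 4 and WT NR 1) no Y-linked gene was well above background although the mice were labelled male. As a check of the labels, a probe of Atm lay between 7.72 and 8.08 on all Atm-/- arrays and between 8.52 and 9.03 on all WT arrays, while a brighter Atm probe was not called (limma, difference of -0.35 in Atm-/- veh against WT veh, adjusted p = 0.221). All 6 marker genes of Purkinje cells and all 5 of granule cells were measured, none of the Purkinje markers was called in any comparison, and 1 granule cell marker, Reln, was lower in Atm-/- NR than in Atm-/- veh (-0.52, limma adjusted p = 0.0335). Among all named genes, 11.5% were called in that comparison. No measured marker of Bergmann glia and astrocytes, oligodendrocytes, microglia, choroid plexus, endothelium or blood cells was called in any comparison. On Atm-/- veh 3 the 3 blood cell markers lay on average 2.42 above their mean over all arrays, against -0.69 to 0.31 on the other arrays. The part of blood in the comparisons was not tested. Whole tissue was measured, so fewer cells of a type and less RNA per cell cannot be told apart.

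By the brightest probes, NR in Atm-/- mice came with calls of 4 V0 subunits of the V-ATPase as lower and 1 as higher. The Golgi calcium pump was called higher, and flippases were called in both directions. Of the 54 measured members, 11 were called between Atm-/- NR and Atm-/- veh (20.4%), 4 higher and 7 lower. Among all 16737 named genes, 11.5% were called in this comparison, 6.67% higher and 4.80% lower. By an unadjusted p under 0.05, 18 members (33.3%) differed, against 30.5% of all named genes. The groups did not overlap for 18 members (33.3%), 5 higher and 13 lower in Atm-/- NR, against 26.3% of all named genes. The median difference was -0.09 over the members and 0.04 over all named genes.

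By class, the calls fell on 5 of 8 V0 subunits, on P4 flippases and on the only measured Golgi calcium pump, with 9 of the 11 described below. None of the 10 V1 subunits, 3 V-ATPase accessory genes, 3 SERCA pumps, 4 PMCA pumps, 2 copper pumps or 5 P5 pumps was called by its brightest probe, while the smallest adjusted p in these classes was 0.0685 (limma), for the V1 subunit Atp6v1g2.

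**Figure D1:**
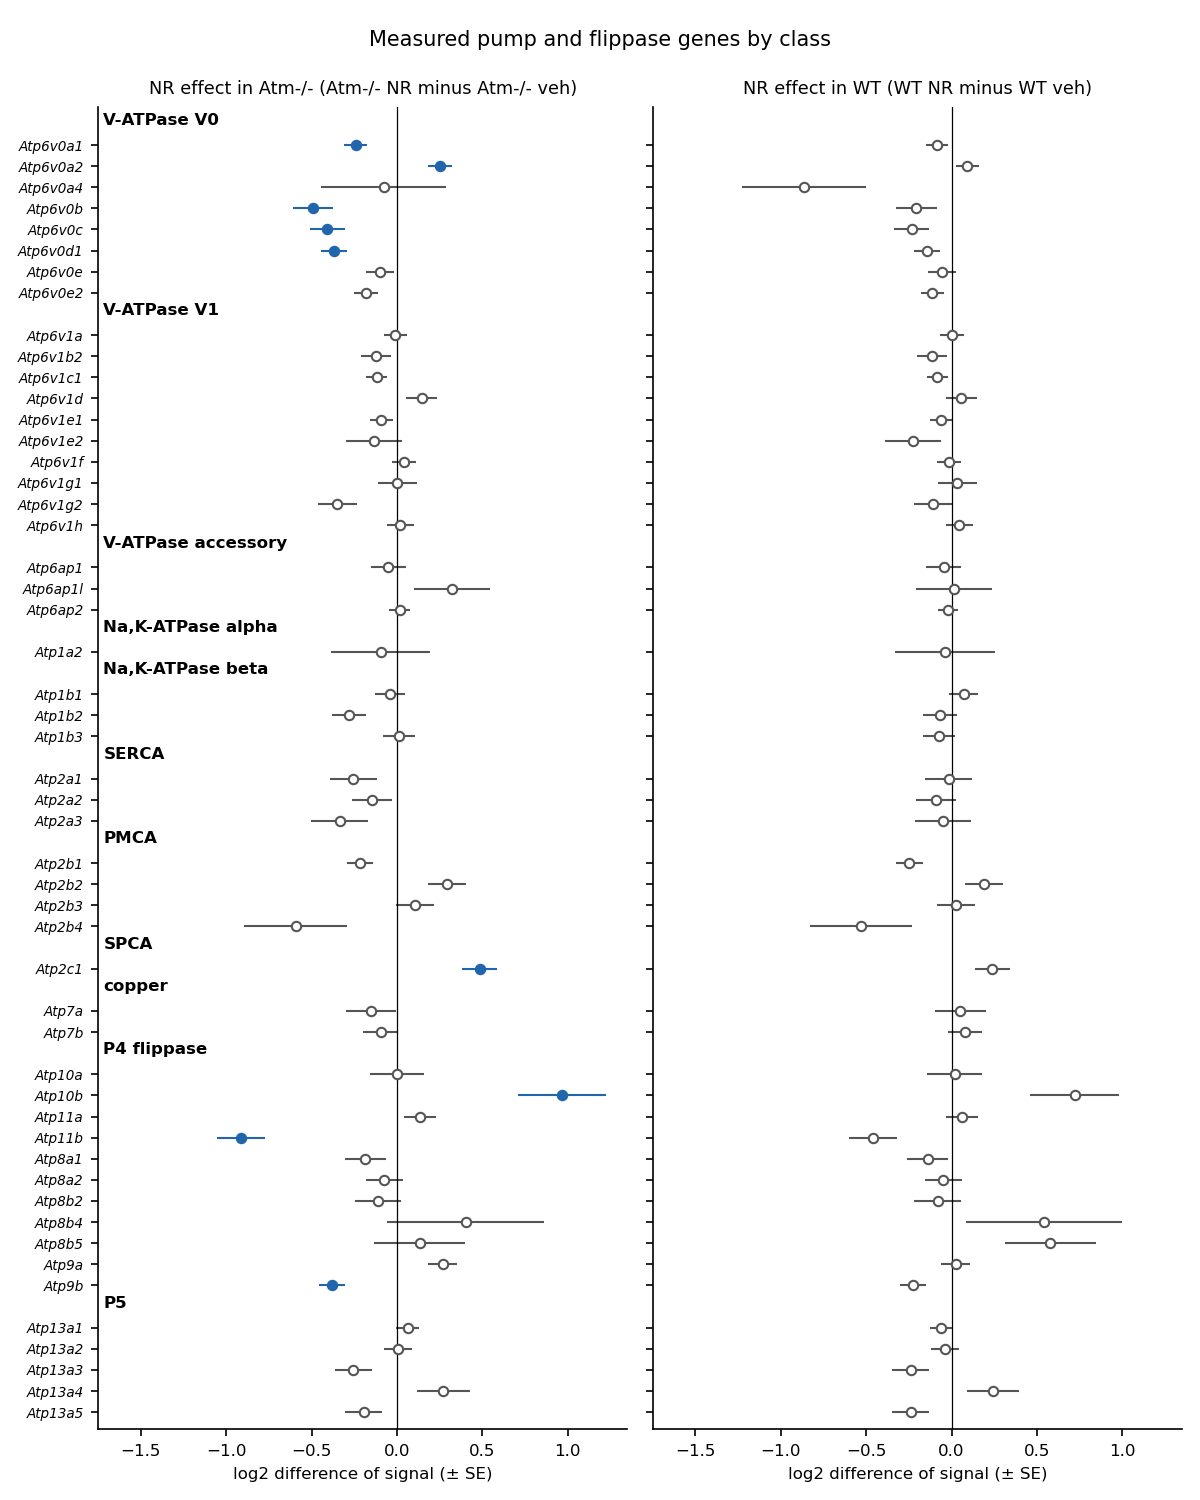
Log2 difference (± SE, limma) of 51 measured members, grouped by class, for NR in Atm-/- mice on the left and NR in WT mice on the right, with called genes as filled blue points. The 9 filled points lie in the left panel only, and each of them lies on the same side of 0 in the right panel.

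The V0 sector held 5 of the 11 calls. It is built from a ring of proteolipid c subunits that turns in the membrane, the large a subunit that forms the proton channel, the d subunit that links the ring to the stalk of V1, and small e subunits. Atp6v0b, Atp6v0c and Atp6v0d1 fell with NR in Atm-/- mice, Atp6v0a1 fell by its brightest probe only, and Atp6v0a2 rose. By the brightest probe 7 of the 8 measured subunits had a negative difference, and 6 had one with normexp background correction or with the probes of a gene averaged. The median over the 8 subunits was -0.21, and -0.14 with probes averaged. The 7 include Atp6v0a4, whose probe was well above background throughout the veh groups but on no Atm-/- NR array. For this gene the filter on dim probes favours a negative sign. With only probes detected on all arrays, which leaves Atp6v0a4 out, 6 subunits had a negative difference and the median was -0.24.

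The 5′ sequences of Atp6v0b, Atp6v0c, Atp6v0d1 and Atp6v0a1 are shown because the brightest probes of these genes were all called lower. Each runs from 150 bases before to 30 bases after the RefSeq transcript start, 5′ to 3′ on the strand of the gene, in build GRCm38.p6. They lie at chr4:117887300-117887479 on the minus strand for Atp6v0b, at chr17:24169649-24169828 on the minus strand for Atp6v0c (the most upstream of 3 listed starts), at chr8:105566035-105566214 on the minus strand for Atp6v0d1, and at chr11:101010248-101010427 on the plus strand for Atp6v0a1. Capitals mark the E-box CACGTG, and GGGCGG or its complement CCGCCC, a GC box.
Atp6v0b: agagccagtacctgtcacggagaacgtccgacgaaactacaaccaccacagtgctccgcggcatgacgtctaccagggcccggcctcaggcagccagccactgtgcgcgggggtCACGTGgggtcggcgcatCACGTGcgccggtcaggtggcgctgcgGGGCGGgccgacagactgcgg
Atp6v0c: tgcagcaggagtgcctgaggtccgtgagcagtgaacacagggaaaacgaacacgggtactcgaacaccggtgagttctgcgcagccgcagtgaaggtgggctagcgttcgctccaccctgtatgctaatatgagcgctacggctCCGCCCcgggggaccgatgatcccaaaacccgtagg
Atp6v0d1: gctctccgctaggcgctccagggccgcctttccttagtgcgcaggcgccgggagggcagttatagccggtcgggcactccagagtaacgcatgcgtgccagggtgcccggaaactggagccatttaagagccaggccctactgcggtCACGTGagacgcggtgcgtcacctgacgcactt
Atp6v0a1: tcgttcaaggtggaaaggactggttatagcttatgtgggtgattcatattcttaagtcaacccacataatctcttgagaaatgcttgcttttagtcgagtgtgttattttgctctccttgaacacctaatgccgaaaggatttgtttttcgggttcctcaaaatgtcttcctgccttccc

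Atp6v0b has a pair of E-boxes, starting 36 and 18 bases before the start, and in Atp6v0d1 an E-box begins 3 bases before the start, within the longer palindrome TCACGTGA. That palindrome holds an E-box wherever it occurs, so both were counted together. Of 37 measured members with an entry among the 32851 promoters of the table (250 bases before to 50 after each start), 7 held CACGTG and 5 held TCACGTGA on either strand. Counted by gene in the same way, 8.09% of the 27025 genes of the table held CACGTG and 1.12% held TCACGTGA, and of the single promoters 7.15% and 0.974% did. Among 15 measured V-ATPase genes with an entry, Atp6v0b, Atp6v0d1, Atp6v0e and Atp6v1a held CACGTG, and the last 2 of these were not called in any comparison. GGGCGG was held by 28 of the 37 members, against 38.2% of all genes and 35.7% of all promoters. These letters were only searched for, and nothing was measured at them.

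Atp6v0b encodes a proteolipid of the ring. Its log2 signal was 14.07, 14.03, 13.73 and 13.88 in WT veh, 13.98, 13.51, 13.65 and 13.74 in WT NR, 14.53, 14.17, 14.04 and 14.29 in Atm-/- veh, and 13.72, 13.79, 13.79 and 13.76 in Atm-/- NR. All Atm-/- NR arrays lay below all Atm-/- veh arrays and within the range of the WT arrays. The difference between them was -0.49 ± 0.12 (SE, limma adjusted p = 0.0238), a ratio of 0.712.

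Atp6v0c encodes the main proteolipid of the ring. It stood at 16.38, 16.28, 16.03 and 16.25 in WT veh, 16.20, 15.85, 15.84 and 16.12 in WT NR, 16.56, 16.40, 16.22 and 16.41 in Atm-/- veh, and 15.98, 15.98, 16.04 and 15.96 in Atm-/- NR. Atm-/- NR and Atm-/- veh did not overlap, while the WT groups did. The difference was -0.41 ± 0.10 (SE, adjusted p = 0.0292, limma), and the second probe of the gene gave -0.30 (adjusted p = 0.0913).

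Atp6v0d1 encodes the d subunit between ring and stalk. Its values were 14.65, 14.55, 14.42 and 14.47 in WT veh, 14.49, 14.32, 14.32 and 14.38 in WT NR, 14.75, 14.64, 14.66 and 14.81 in Atm-/- veh, and 14.41, 14.43, 14.33 and 14.23 in Atm-/- NR. The Atm-/- groups were separated without overlap, by -0.37 ± 0.076 (SE, limma adjusted p = 0.0142).

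The a subunit has isoforms that place the pump on different membranes. The brightest probe of Atp6v0a1, the isoform of synaptic vesicles and lysosomes in neurons, read 15.66, 15.51, 15.58 and 15.68 in WT veh, 15.62, 15.45, 15.48 and 15.53 in WT NR, 15.70, 15.69, 15.55 and 15.70 in Atm-/- veh, and 15.40, 15.39, 15.42 and 15.45 in Atm-/- NR. Every Atm-/- NR array lay below every other array of the series. The difference from Atm-/- veh was -0.24 ± 0.065 (SE, adjusted p = 0.0346, limma), but a dimmer probe of the gene went the other way at 0.51 (adjusted p = 0.0708), so the direction of Atp6v0a1 depends on the probe.

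Atp6v0a2, an isoform of Golgi and endosomes, rose instead. Its values were 13.45, 13.55, 13.53 and 13.49 in WT veh, 13.63, 13.53, 13.59 and 13.63 in WT NR, 13.43, 13.44, 13.24 and 13.51 in Atm-/- veh, and 13.64, 13.73, 13.68 and 13.58 in Atm-/- NR. The Atm-/- groups did not overlap, the difference was 0.25 ± 0.068 (SE, limma adjusted p = 0.0353), and a second probe was also called at 0.34 (adjusted p = 0.0388). Among the remaining V0 subunits, Atp6v0e2, a small subunit found mainly in brain, had a difference of -0.18 without overlap of the groups (adjusted p = 0.112), and Atp6v0e had -0.10 (adjusted p = 0.446).

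**Figure D2:**
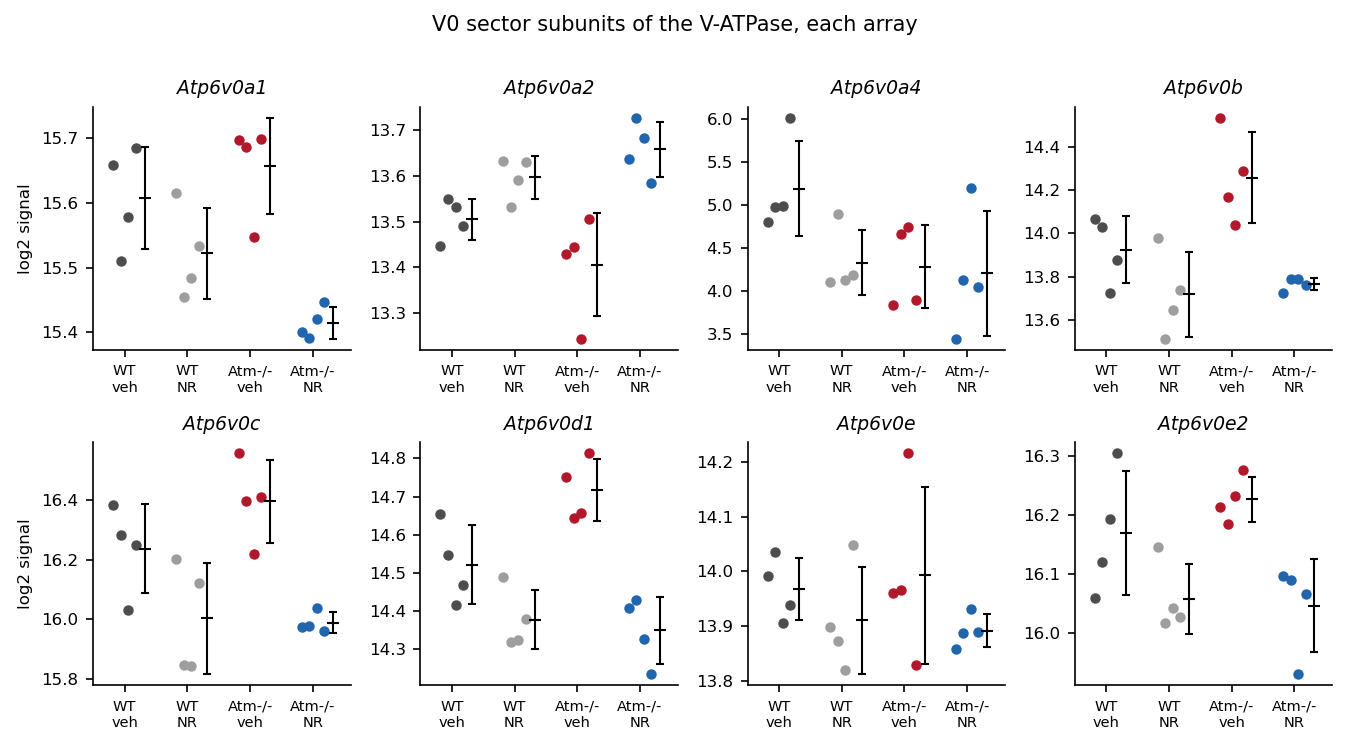
Log2 signal of the brightest probe of the 8 measured V0 subunits on each array (points) with mean and SD (n = 4), each panel on its own axis. In Atp6v0a1, Atp6v0b, Atp6v0c, Atp6v0d1 and Atp6v0e2 all Atm-/- NR points lie below all Atm-/- veh points, and in Atp6v0a2 they lie above.

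The V1 sector, which the same pump needs in fixed proportion, gave no call by its brightest probes. Atp6v1a, the subunit that splits ATP, had a difference of -0.01 with a 95% interval of -0.16 to 0.14. Atp6v1b2, the other subunit of the catalytic ring in brain, had -0.12 with an interval of -0.31 to 0.07. The intervals of Atp6v1c1, Atp6v1d, Atp6v1e1, Atp6v1f, Atp6v1g1 and Atp6v1h lay between -0.25 and 0.34. Atp6v1e2, a stalk isoform best known from testis, had -0.14 (limma adjusted p = 0.629). Atp6v1g2, the stalk subunit of neurons, stood apart at -0.35 (limma adjusted p = 0.0685), and its second, dimmer probe was called at -0.37 (adjusted p = 0.0432). On that second probe, Atm-/- veh read 13.12, 12.94, 12.82 and 12.93 and Atm-/- NR 12.38, 12.76, 12.64 and 12.56, without overlap. A V0 subunit was not tested against a V1 subunit.

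As a description of whole classes, the median deviation of the genes of a class from their own mean over all arrays was taken on each array. For V0 this lay at 0.11 to 0.15 in Atm-/- veh and at -0.13 to -0.10 in Atm-/- NR, with WT veh at -0.02 to 0.13 and WT NR at -0.14 to 0.03. For V1 the same ranges were 0.01 to 0.09 in Atm-/- veh and -0.04 to 0.05 in Atm-/- NR, which overlap. The 6 sodium pump subunits ran from 0.04 to 0.12 in Atm-/- veh and from -0.15 to -0.06 in Atm-/- NR. Over all 54 members the ranges were 0.01 to 0.06 in Atm-/- veh and -0.06 to -0.02 in Atm-/- NR. Such a separation is therefore not particular to V0. The V0 calls came from these same arrays, so the V0 ranges are no further evidence for them.

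**Figure D3:**
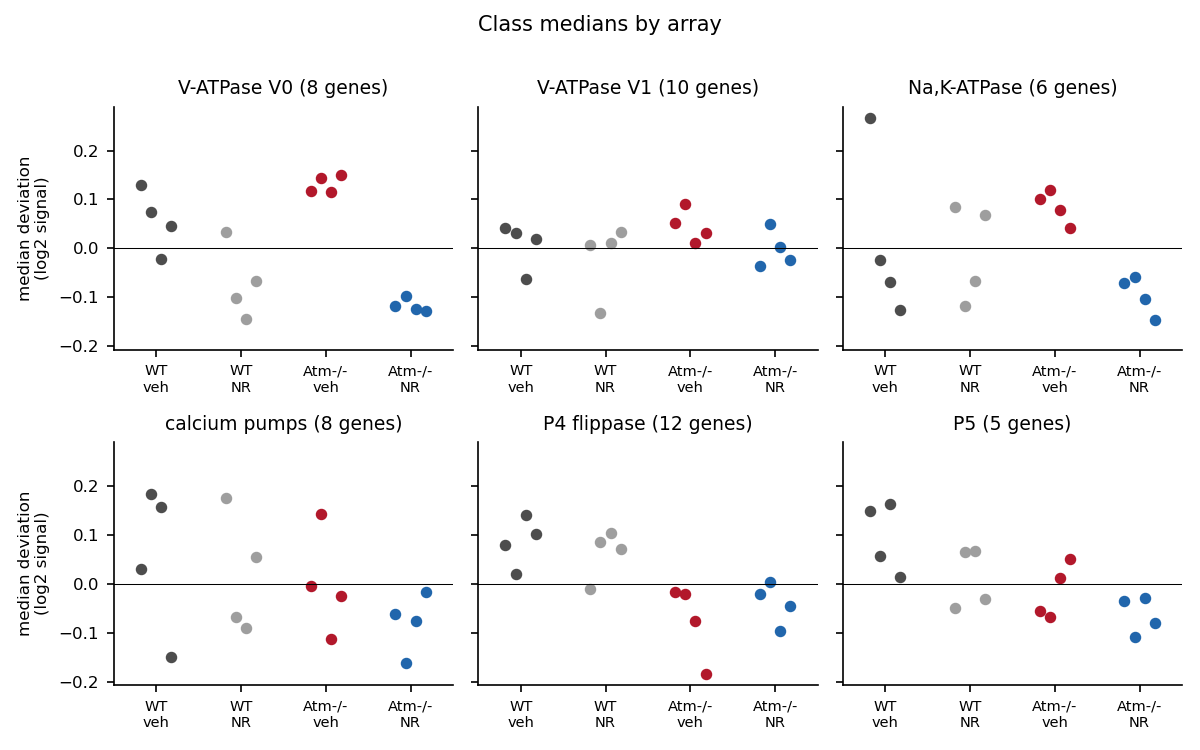
Median deviation (log2 signal) of the genes of a class from their mean over all 16 arrays, 1 point an array, with calcium pumps as SERCA, PMCA and SPCA together. The V0 points of Atm-/- veh (0.11 to 0.15) and Atm-/- NR (-0.13 to -0.10) form separate rows. Those of the sodium pump (Na,K-ATPase) are also apart, and the V1 points of these groups overlap.

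Genes that work with the V-ATPase were read from the same fit, and of 13 listed, 12 were measured. With NR in Atm-/- mice 1 was called higher and 2 lower, where 11.5% of all named genes were called. Rnasek, a small protein bound to V0, fell by 0.57 (limma adjusted p = 0.0101) and Rogdi, a part of the complex that joins V1 to V0, fell by 0.41 (adjusted p = 0.0223). Oxr1, whose TLDc domain is known to part the sectors, rose by 0.39 (adjusted p = 0.0146). The accessory subunits Atp6ap1 and Atp6ap2 had differences of -0.05 and 0.02 (adjusted p = 0.788 and 0.895).

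Of the P4 flippases, Atp11b and Atp9b fell and Atp10b rose. Atp11b, a phosphatidylserine flippase of endosomes, had the lowest adjusted p of all members. It read 11.45, 11.30, 11.50 and 11.43 in WT veh, 11.24, 10.87, 11.00 and 10.74 in WT NR, 11.95, 11.61, 11.61 and 11.84 in Atm-/- veh, and 11.23, 10.66, 10.61 and 10.85 in Atm-/- NR. Atm-/- veh was the highest group and overlapped no other, and each NR group lay below its veh group on every array. NR gave a difference of -0.92 ± 0.14 in Atm-/- mice (SE, limma adjusted p = 0.00616), a ratio of 0.530. Its dimmer probe had -0.18 (adjusted p = 0.518).

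Atp9b, a flippase of the Golgi, read 11.49, 11.48, 11.43 and 11.50 in WT veh, 11.31, 11.21, 11.33 and 11.15 in WT NR, 11.70, 11.50, 11.55 and 11.65 in Atm-/- veh, and 11.32, 11.34, 11.10 and 11.12 in Atm-/- NR. All NR arrays of both genotypes lay below all veh arrays. The difference in Atm-/- mice was -0.38 ± 0.077 (SE, adjusted p = 0.0139, limma), and as with Atp6v0a1 a much dimmer probe went the other way, at 0.52 (adjusted p = 0.101).

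Atp10b, a flippase of late endosomes and lysosomes, was at 7.48, 7.21, 6.77 and 7.60 in WT veh, 7.32, 8.09, 8.31 and 8.22 in WT NR, 6.57, 6.91, 6.42 and 6.82 in Atm-/- veh, and 7.29, 8.08, 8.01 and 7.20 in Atm-/- NR. The Atm-/- groups did not overlap, and the rise was 0.97 ± 0.26 (SE, limma adjusted p = 0.0352), the largest of any member.

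Among flippases that were not called, Atp9a, a flippase of recycling endosomes, had 0.27 with groups that did not overlap (limma adjusted p = 0.0661), and Atp8a1 and Atp8a2, the phosphatidylserine flippases of neurons, had -0.18 and -0.08. Tmem30a, the beta subunit that most P4 flippases need to leave the endoplasmic reticulum, rose by 0.32 (adjusted p = 0.0223, limma). It was the only call among 8 measured of 10 listed flippase partners and scramblases, against 11.5% of all named genes.

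The Golgi calcium and manganese pump Atp2c1 was at 13.18, 13.17, 13.07 and 12.86 in WT veh, 13.14, 13.43, 13.21 and 13.46 in WT NR, 12.86, 13.02, 12.72 and 12.81 in Atm-/- veh, and 13.24, 13.26, 13.47 and 13.39 in Atm-/- NR. It rose by 0.49 ± 0.10 in Atm-/- mice without overlap of the groups (SE, limma adjusted p = 0.0152), a ratio of 1.40. Its dimmer probes had differences of 0.13 and 0.08, and with the probes averaged Atp2c1 was not called. The SERCA pumps Atp2a1, Atp2a2 and Atp2a3 had differences of -0.26, -0.15 and -0.34, with a smallest adjusted p of 0.209. Of the PMCA pumps, Atp2b2, which is strong in Purkinje and granule cells, had 0.29 (adjusted p = 0.111) and Atp2b1 -0.22 (adjusted p = 0.0942). Atp2b3 showed a split between probes, with 0.10 and 0.24 on the brighter 2 and a call at -0.57 on the dimmest (adjusted p = 0.0213). None of 7 measured calcium exporters outside the ATPases and none of 3 measured SERCA regulators was called, against 11.5% of all named genes.

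Among the beta subunits of the sodium pump, Atp1b2, which is that of glia, had -0.28 without overlap (limma adjusted p = 0.0891), while Atp1b1 and Atp1b3 had -0.04 and 0.01. Fxyd1, a small regulator of the pump, fell by 0.45 (adjusted p = 0.0286, limma). It was the only call among 11 measured pump regulators in this comparison, against 11.5% of all named genes.

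The copper pumps Atp7a and Atp7b, which load copper into secreted enzymes, had differences of -0.15 and -0.10 with NR in Atm-/- mice, and neither was called. Of 6 measured genes of copper transport, 1 was called, against 11.5% of all named genes. It was Cox17, the copper chaperone of cytochrome oxidase, which rose by 0.46 (limma adjusted p = 0.0131). Among the 5 P5 pumps, Atp13a3 had -0.26 without overlap of the groups (adjusted p = 0.146, limma), the lowest adjusted p of the class.

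**Figure D4:**
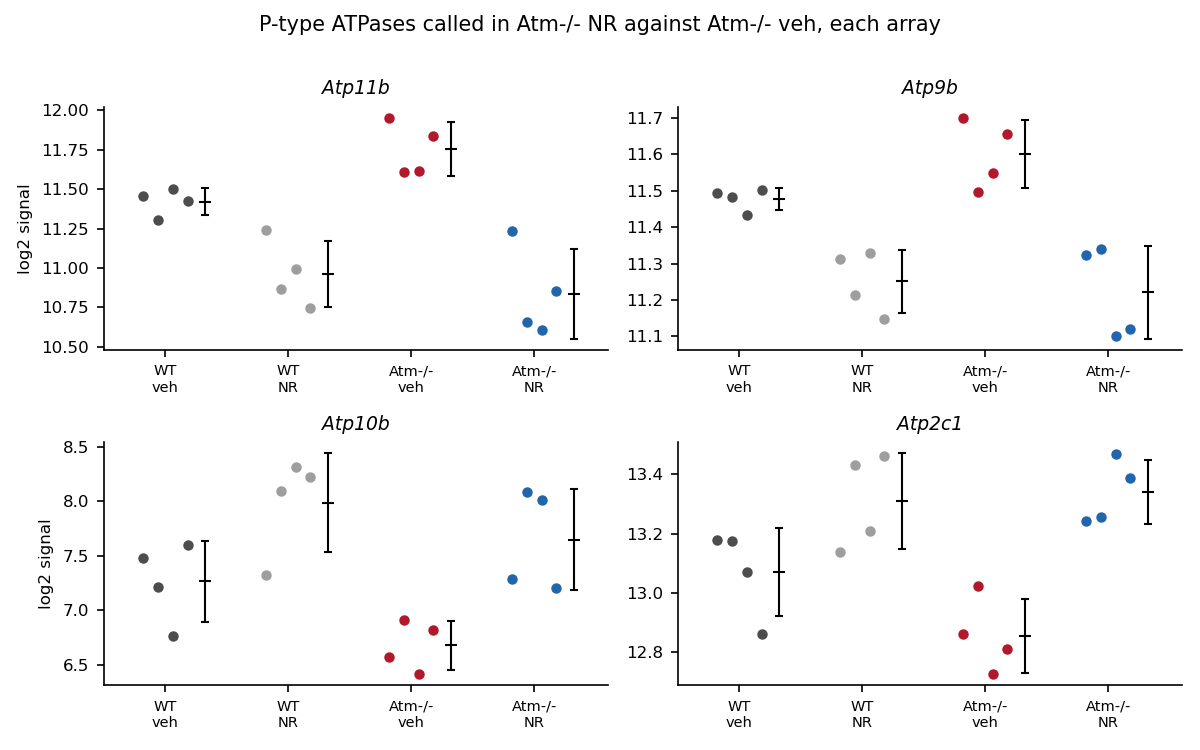
Log2 signal of the brightest probe of 4 P-type ATPases called in Atm-/- NR against Atm-/- veh, on each array (points) with mean and SD (n = 4), each panel on its own axis. Atm-/- NR lies wholly below Atm-/- veh in Atp11b and Atp9b, and wholly above it in Atp10b and Atp2c1.

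Probes of a gene did not always move together. Among 40 further measured probes of members, 26 had the direction of the brightest probe, and among the 11 further probes of called members 9 did, the exceptions being those of Atp9b and Atp6v0a1. Over all 94 measured probes of members, 14 were called, 5 higher and 9 lower, where 9.04% of all measured probes were called. When the probes of a gene were averaged, 6.82% of all named genes and 5 members (9.26%) were called: Atp10b, Atp11b, Atp6v0a2, Atp6v0b and Atp6v0d1.

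**Figure D5:**
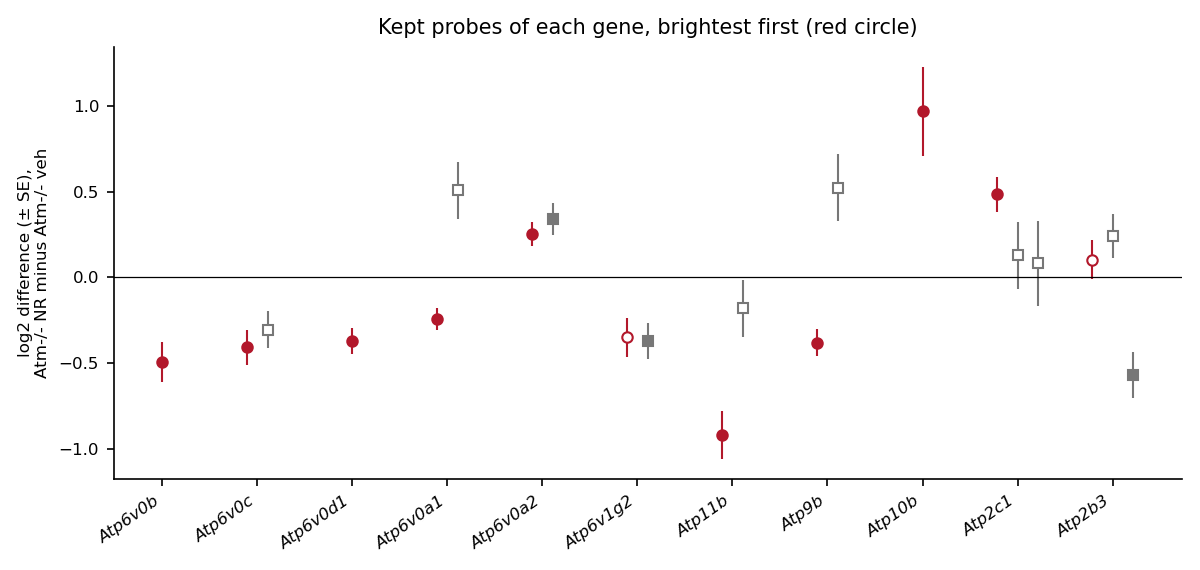
Log2 difference (± SE, limma) of each measured probe in Atm-/- NR against Atm-/- veh for 9 called members, Atp6v1g2 and Atp2b3, with the brightest probe as a red circle, the others as grey squares in order of brightness, and called probes filled. The second probes of Atp6v0a1 (0.51) and Atp9b (0.52) lie above 0 while the brightest lie below, and the second probe of Atp6v0a2 is called in the same direction.

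The number of calls depended on single arrays. Leaving out Atm-/- veh 1 left 3 members called (Atp11b, Atp2c1 and Atp6v0d1) and 2.97% of all named genes, and leaving out Atm-/- NR 3 left 3 (Atp11b, Atp9b and Atp6v0d1) and 3.17%. The count was 5 without Atm-/- veh 4 (with 4.60% of all named genes called), 6 without Atm-/- NR 1 (8.78%), 4 without Atm-/- NR 2 (5.31%) and 7 without Atm-/- NR 4 (6.51%). Without the arrays that lacked Y-gene signal only Atp11b was called, with 1.15% of all named genes. The 11 members kept their direction in each of these fits.

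In WT mice NR gave no call among the members, and none (0%) among all named genes (limma). By an unadjusted p under 0.05, 10 members (18.5%) differed, 3 higher and 7 lower, against 8.84% of named genes. The groups did not overlap for 4 members (7.41%), all lower in WT NR, against 4.58% of named genes. The 3 positive ones were Atp10b at 0.72, Atp8b5 at 0.58 and Atp2c1 at 0.24, and the most negative of the 7 were, beside Atp6v0a4 at -0.86, Atp11b at -0.46, Atp2b1 at -0.25 and Atp13a3, a polyamine transporter, at -0.24 (adjusted p from 0.516 to 0.652, limma). Atp6v0a4 passed the filter on dim probes through the veh groups and not through WT NR, and this favours a negative sign here. Atp8b5 also passed this filter through some groups only, so the filter may favour the sign of its difference as well. Atp2b1, the PMCA pump found in most cells, read 13.43, 13.40, 13.42 and 13.58 in WT veh against 13.33, 13.24, 13.19 and 13.08 in WT NR, without overlap.

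The 11 members called in Atm-/- mice had the same sign in WT mice, where each difference was smaller and 5 had an unadjusted p under 0.05. The NR comparisons of the genotypes share no array, but in neither can NR be told apart from the row of the slide. They also share the normalization and the estimate of the spread. The part of the row in the same signs was not tested. The shared sign was general: of the 1920 named genes called in Atm-/- mice, 1838 (95.7%) had the same sign in WT and 1907 a smaller difference. In WT, 618 of the 1920 had an unadjusted p under 0.05 (limma). Choosing genes by their call in Atm-/- mice favours a smaller difference in WT by itself. The V0 genes Atp6v0b, Atp6v0c, Atp6v0d1 and Atp6v0a1 had -0.21, -0.23, -0.14 and -0.09 in WT. Tested directly, no member (0%, as for all named genes) differed between the genotypes in its NR effect (limma), and by an unadjusted p under 0.05 only Atp11b did, 1 member of 54 against 5.96% of named genes, with -0.46 ± 0.20 (SE, adjusted p = 0.839). The other members with a large difference of the NR effects were Atp6v0a4 at 0.79 and Atp8b5 at -0.45 (adjusted p = 0.839 and 0.855, limma), and neither probe stood well above background on any Atm-/- NR array. Without WT veh 4 the value of Atp6v0a4 was 0.44 (adjusted p = 0.819, limma).

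Loss of Atm without NR gave no call among the members, with 0.0538% of named genes called (limma, 9 genes). Between Atm-/- veh and WT veh, 12 members (22.2%) had an unadjusted p under 0.05, 5 higher and 7 lower, against 16.8% of named genes, and 7 had groups that did not overlap, 3 higher and 4 lower, against 8.74%. The copper pump Atp7b, mutated in Wilson disease, had the smallest adjusted p of 0.163. It read 9.42, 9.28, 9.34 and 9.51 in WT veh and 9.92, 9.84, 9.92 and 9.62 in Atm-/- veh, a difference of 0.44 ± 0.10 (SE). All Atm-/- veh arrays lay above all WT veh arrays, and with NR the genotypes differed by 0.26 (adjusted p = 0.886, limma).

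Among the other members with an unadjusted p under 0.05, the largest positive differences were Atp6v1g2 at 0.34, Atp11b at 0.33 and Atp6v0b at 0.33, and the largest negative ones were Atp6v0a4 at -0.91, Atp10b at -0.58 and Atp2b3 at -0.35 (limma adjusted p from 0.216 to 0.324). Atm-/- veh is one side of this comparison and of the NR comparison, so these values are given side by side only. Atp2b3, a PMCA pump of neurons, read 13.90, 13.83, 13.96 and 13.54 in WT veh and 13.49, 13.67, 13.32 and 13.34 in Atm-/- veh. The groups overlapped in 1 array of each, WT veh 4 and Atm-/- veh 2. The 5 P5 pumps all had negative differences, from -0.21 to -0.04, of which 1 had an unadjusted p under 0.05. Of the pump partners, Fxyd6, a regulator of the sodium pump, was the only call: it fell by 1.5 (adjusted p = 0.00929, limma), and it lies on the same chromosome as Atm.

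Atp6v0a4, the a subunit of acid-secreting epithelia, was near background. It read 4.80, 4.97, 4.98 and 6.01 in WT veh, 4.11, 4.89, 4.13 and 4.18 in WT NR, 3.83, 4.65, 4.74 and 3.90 in Atm-/- veh, and 3.44, 4.13, 5.19 and 4.05 in Atm-/- NR, and it was well above background on all arrays of both veh groups, 1 WT NR array and no Atm-/- NR array. WT veh 4 was the highest array, and on this array the 7 measured of 8 listed markers of choroid plexus lay on average 4.46 above their mean over all arrays, against -1.01 to 0.58 on the other 15. Without WT veh 4 the differences of Atp6v0a4 were -0.57 for Atm-/- veh against WT veh and -0.57 for WT NR against WT veh (adjusted p = 0.441 and 0.599, limma). The part of the choroid plexus in them was not tested.

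With NR given to both genotypes, no member differed between Atm-/- and WT, where 0.0597% of named genes were called (limma, 10 genes). By an unadjusted p under 0.05, 2 members (3.70%) did, Atp7b at 0.26 and Atp2b3 at -0.28 (adjusted p = 0.886 and 0.900, limma), against 4.34% of named genes. The V0 subunits Atp6v0b, Atp6v0c and Atp6v0d1 differed by 0.05, -0.01 and -0.03, and Atp11b by -0.13. Their 95% intervals were -0.21 to 0.30, -0.24 to 0.21, -0.19 to 0.13 and -0.43 to 0.18.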

How the data were processed

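RNA of cerebellar cortex was hybridised to 1-colour Agilent arrays. The deposited intensity values are the background-subtracted spot signals that Feature Extraction 12.0.3.1 wrote, per the file headers. The deposited score values are z-scores that the authors made within each array from quantile-normalized log signal, and they were used as an alternative only. Here the 56605 probes were filtered to 37253 (65.8%) that were well above background on every array of some group. The log2 intensity was then quantile normalized over these measured probes. Depth is not defined for arrays, and their number limits the precision. A model with 4 groups was fitted in limma 3.58.1 (R 4.3.3), with 12 residual degrees of freedom and Benjamini-Hochberg adjustment over all measured probes. It was tested on simulated data, with noise drawn independently for each probe and array. Of 200 probes raised by 1 in Atm-/- NR, 124 were called against Atm-/- veh, as were 6 unchanged probes. Genes were named through RefSeq accessions, and a gene was read from its brightest measured probe. Promoters came from RefSeq (GRCm38.p6).

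The members and lists were chosen with earlier results of these data known. Named were, apart from members not reported, all called members, in each comparison up to 4 members a direction with an unadjusted p under 0.05, the 3 largest differences of the NR effects, and Atp11b, which the study lists. Fxyd6, Fxyd1, Rnasek, Rogdi, Oxr1, Tmem30a and other members were named with their class or list. No label ties equal replicate numbers to a shared litter or day. No source gives how the mice were housed together, and the p-values measure the spread between these 4 mice a group.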

Additional observations from a re-analysis of the deposited data

Results flagged for a closer look

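In 5 of 76 groups of 4 arrays, over 19 named members, 1 array lay far from the other 3, and chance flags about 1 in 20 groups. Atp2b1 read 13.58 on WT veh 4, with 13.43 as the nearest value. Atp2b3 read 13.43 on Atm-/- NR 2, with 13.59 as the nearest. Atp6v0a1 read 15.55 on Atm-/- veh 3, with 15.69 as the nearest, and it was still called without that array, which lacks Y-gene signal. Atp6v0a4 read 6.01 on WT veh 4, with 4.98 as the nearest, and 4.89 on WT NR 2, with 4.18 as the nearest.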

How the results depend on the processing

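Between Atm-/- NR and Atm-/- veh, where 11 members were called, leaving out 1 array at a time gave 3 to 12 calls, arrays with Y-gene signal alone gave 1, and averaging the probes of a gene gave 5 (9.26%, with 6.82% of all named genes). The methods' t-test at its full threshold (p, false discovery rate, a test over all groups and a z-ratio reaching 1.5 either way, read here as the z difference over its SD across probes) gave 2 members (3.70%), Atp10b and Atp11b, and 2.05% of named genes there, and 0 members in the other comparisons. Its p alone, an alternative chosen after seeing the data, gave 22 members (40.7%, with 33.7% of named genes) there, 13 (24.1%, with 13.5%) for Atm-/- veh against WT veh, 9 (16.7%, with 7.48%) for WT NR against WT veh and 4 (7.41%, with 7.03%) for Atm-/- NR against WT NR. After Benjamini-Hochberg adjustment it gave 10 (18.5%, with 12.5% of named genes) for NR in Atm-/- mice. With the probes averaged, Atp6v0a1 turned to 0.13 and Atp9b to 0.072 (limma adjusted p = 0.396 and 0.670), since a second probe of each goes the other way. Other scaling, background correction, filters and the deposited z-scores gave 8 to 13 calls, with 9.58% to 14.5% of named genes. Across 907 values of 33 results on named members, 803 kept direction and side of the threshold, 86 lost the call, 16 gained one and 2 reversed. Of the 16 gains, 15 came from the t-test's p alone, which is not adjusted. Atp11b was called for NR in Atm-/- mice under every setting run. With the replicate number as a block, 10 members were called (10.7% of named genes), without Atp6v0a2, and 0 in the other comparisons. Same-numbered arrays deviated together in 6 of 24 pairs (r over 0.1), with a median r of -0.019, and 5 of 16 arrays were nearest to their own number. The t-test and the fit on the compared arrays alone were not run for the difference of the NR effects.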
